A study of Mus musculus with 2 samples.

Results

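The gene segments of the T cell receptor alpha chain (TRA) and the joining segments of the beta chain (TRBJ) were counted in T cells from mouse subcutaneous tumours, together with the length of the CDR3, the stretch in which the V and J segments are joined. All V and J genes named for TRA and all J genes named for TRB in the contig tables were taken, which gave 51 TRAV, 41 TRAJ and 12 TRBJ genes, or 104 of the 124 V and J genes named for both chains. The study compared tumours of mice fed a serine/glycine-free diet (labelled SG) with tumours of mice fed a control diet (labelled CT), with 1 single-cell immune profiling library for each diet. The labels give no strain, age, tumour line or number of mice, and their extraction text describes human cardiac tissue, while the organism, the source and the design name mouse tumour. With 1 library per diet no test between diets was possible, so shares carry exact 95% Clopper-Pearson intervals and ratios carry exact conditional binomial intervals. Both cover counting error only, not the spread between mice, and cells of 1 clone are not independent counts.

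The alpha chain is built in the thymus by joining a V segment to a J segment on chromosome 14, and the same allele can be joined again with segments that lie farther out. Joining is thought to start with TRAV genes nearest the TRAJ genes and with high-numbered TRAJ genes, and to move outward on both sides. Alpha alleles are not strictly silenced, so a T cell can carry a pair of alpha chains. The beta chain adds a D segment and draws its J from a cluster named TRBJ1, in front of TRBC1, or a cluster named TRBJ2, in front of TRBC2. The CDR3 contacts the presented peptide. Natural killer T cells use an invariant TRAV11 to TRAJ18 joint and mucosal-associated invariant T cells a TRAV1 to TRAJ33 joint in the mouse.

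The serine/glycine-free library held 247 barcodes with a contig and the control library held 256. TRA was read in 229 SG and 230 CT barcodes, as 284 SG and 253 CT contigs. The median number of UMIs (unique molecular identifiers, which count captured molecules) of a TRA contig was 15 in SG and 9 in CT. A rearrangement is a distinct combination of chain, V gene, J gene and CDR3 nucleotides within a library. The serine/glycine-free library had 108 TRA rearrangements, of which 16 were in 2 or more cells and the largest was in 65. The control library had 213, of which 29 were in 2 or more cells and the largest was in 5. TRB gave 110 rearrangements in 243 barcodes of the serine/glycine-free library and 216 in 242 barcodes of the control library. The libraries shared 0 nucleotide rearrangements and 0 barcodes with contigs, while 104 barcodes occurred in both full matrices. A UMI of Cd3d, Cd3e or Cd3g, parts of the receptor complex of every T cell, was present in 99.6% of SG and 97.3% of CT barcodes with contigs. B cell markers were at 0 in those barcodes of both libraries. Macrophage markers (Adgre1, C1qa, C1qb, Csf1r and Lyz2) had a UMI in 36 SG and 27 CT barcodes, and NK markers (Ncr1, Klrb1c, Klre1 and Eomes) in 99 SG and 30 CT barcodes. Their part in the results was not tested.

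All 104 segments matched the RefSeq annotation of GRCm38.p6, the assembly that corresponds to mm10. The annotated TRAV genes span chromosome 14 from 52427967 to 53977678, the TRAJ genes span 54155005 to 54218842 on the same chromosome, and the TRBJ genes span chromosome 6 from 41533864 to 41543856. Of 114 annotated TRAV segments that are not pseudogenes, 35 carry a D in their name and 31 an N, which mark duplicated copies. The D copies supplied 25.9% (28 of 108) of the TRA rearrangements in the serine/glycine-free library and 30.5% (65 of 213) in the control library. The N copies supplied 13 SG and 34 CT rearrangements, and genes without a letter supplied 62.0% (67) in SG and 53.5% (114) in CT. These copies are nearly identical in sequence, so the assignment of a chain to 1 copy rather than another is uncertain.

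TRAV usage was broad in both libraries when each rearrangement was counted once. The serine/glycine-free library used 41 TRAV genes and the control library 49, with 39 in both. TRAV16N, at chr14:53351090-53351621, was the most used gene of the control library and shared the first place in the serine/glycine-free library. It supplied 8.33% of rearrangements (9 of 108, interval 3.88 to 15.2) for the serine/glycine-free library and 7.51% (16 of 213, interval 4.35 to 11.9) for the control library, with a ratio of 1.11 (0.432 to 2.67). TRAV3-3, at chr14:53666005-53666506, supplied 8.33% (9) in SG and 3.29% (7) in CT, with a ratio of 2.54 (0.840 to 8.01). TRAV7-3, at chr14:53443314-53443839, supplied 6.48% (7) in SG and 2.82% (6) in CT, with a ratio of 2.30 (0.662 to 8.29). The intervals of all 3 ratios held 1, so a difference was not detectable at this depth. TRAV6-6 was used in 7 SG and 12 CT rearrangements, TRAV8D-1 in 6 SG and 6 CT, TRAV9-4 in 5 SG and 9 CT, and TRAV12D-2 in 4 SG and 8 CT. These genes, like TRAV16N, were among the commoner TRAV genes under both diets.

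The ratio interval excluded 1 for 1 of 51 TRAV genes, or 1.96%. That gene was TRAV14D-3-DV8, at chr14:53078547-53079045, a segment that can also join to delta chains. It was seen in 0 of 108 rearrangements of the serine/glycine-free library, which allows a share of up to 2.78%, and in 11 of 213 (5.16%, interval 2.61 to 9.05) of the control library. The exact interval of the ratio, serine/glycine-free over control, ended at 0.786. The limit on the share of 0 takes 3 counts as its floor, while the exact interval of that share reached 3.36%. TRAV14D-2, of the same family, had 0 SG and 8 CT rearrangements, with a ratio interval that reached 1.16. When copies were merged by family, the TRAV14 family had 6 of 108 (5.56%) in SG and 28 of 213 (13.1%) in CT, with a ratio of 0.423 (0.143 to 1.04). The intervals of 0 of 19 families then excluded 1, so the family as a whole lay the same way with an interval that held 1. Among the other genes with fewer rearrangements in the serine/glycine-free library, TRAV9D-2 and TRAV6N-7 each had 1 in SG and 8 in CT, TRAV13-1 had 2 in SG and 8 in CT, TRAV10D had 0 in SG and 5 in CT, and TRAV1 had 1 in SG and 5 in CT. TRAV5D-4 with 4 in SG and 2 in CT and TRAV4-2 with 3 in SG and 1 in CT lay the other way.

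**Figure D1:**
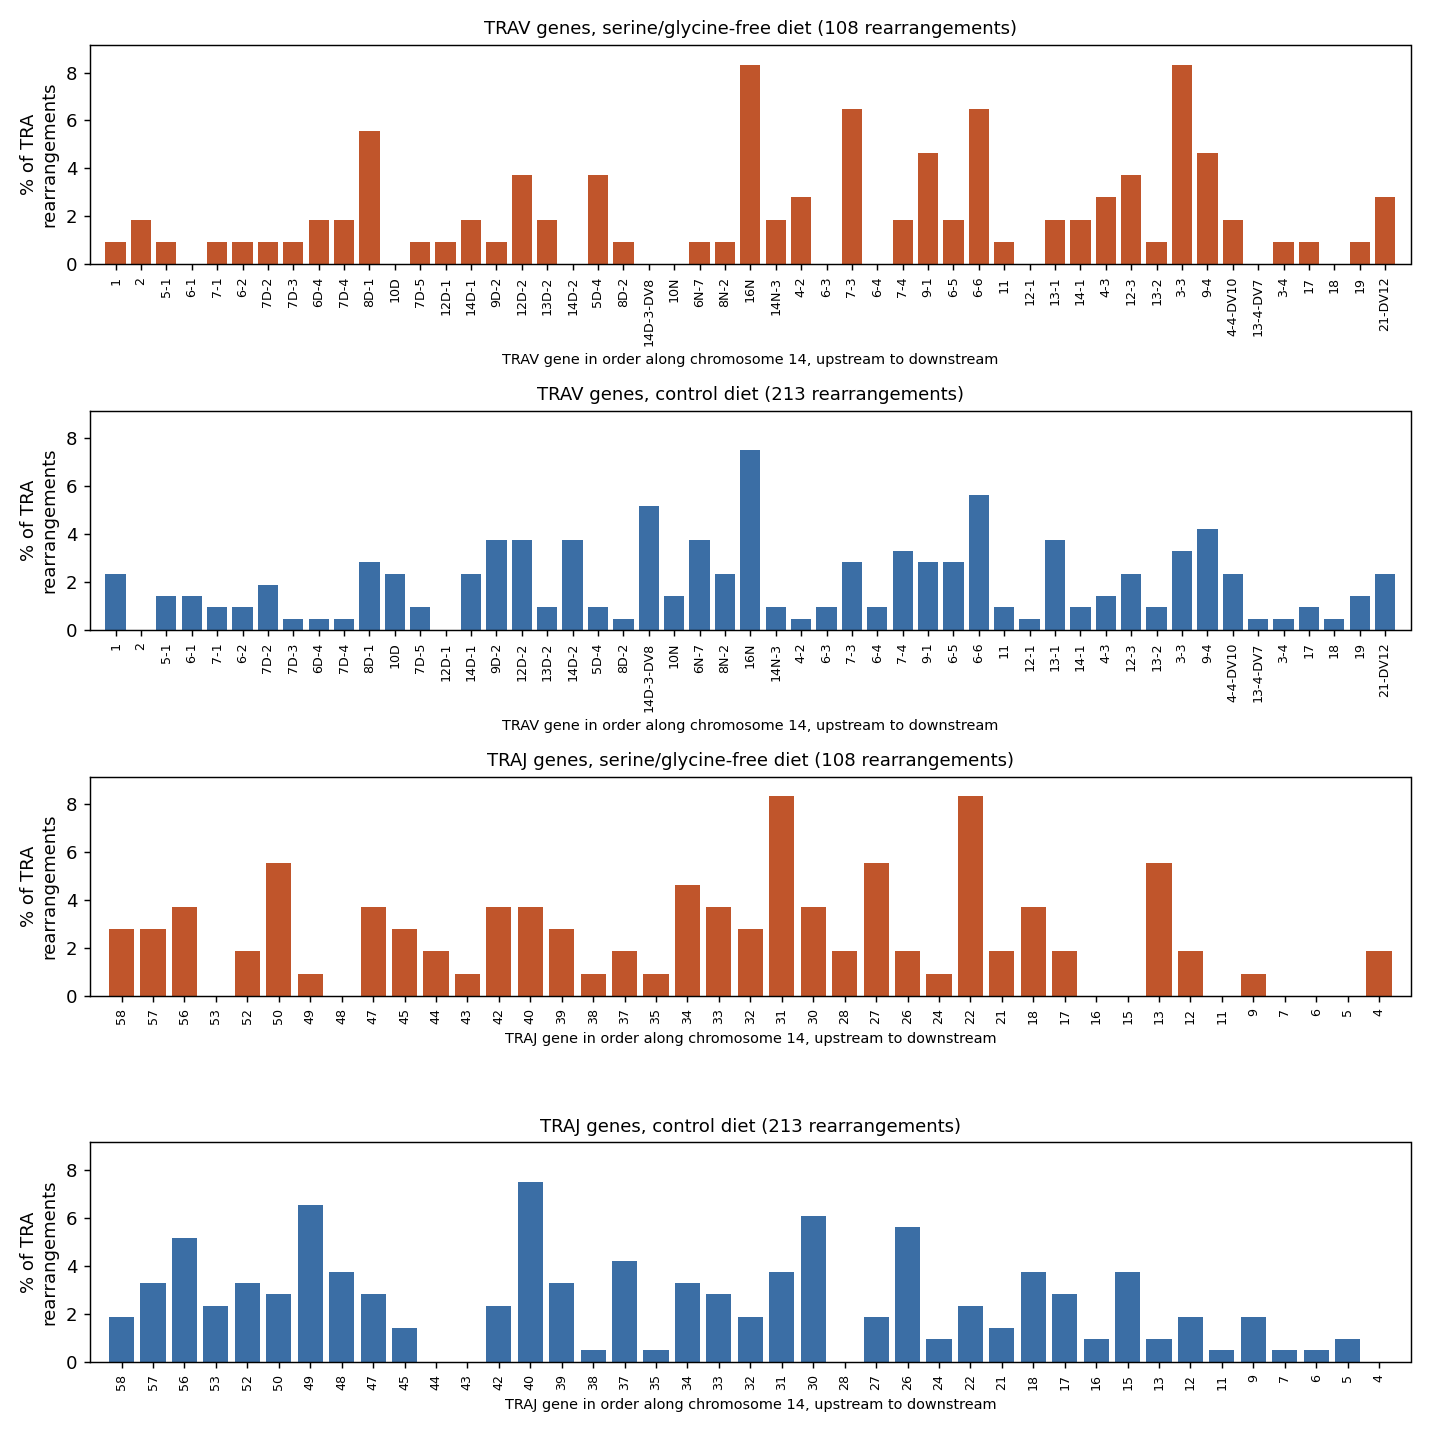
Share of distinct TRA rearrangements (%) that used each TRAV gene (upper pair of panels) and each TRAJ gene (lower pair), in order along chromosome 14, for the serine/glycine-free library (108 rearrangements) above the control library (213). Bars are shares, drawn without their intervals. TRAV3-3 and TRAV16N reach 8.33% in the serine/glycine-free library, and TRAV14D-3-DV8 has no bar there against 5.16% in the control library.

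TRAJ usage had 33 genes in the serine/glycine-free library and 37 in the control library, with 29 in both. The ratio interval excluded 1 for 3 of 41 TRAJ genes, or 7.32%. TRAJ22, at chr14:54197248-54197307, supplied 8.33% of rearrangements (9 of 108, interval 3.88 to 15.2) for the serine/glycine-free library and 2.35% (5 of 213, interval 0.766 to 5.39) for the control library, with a ratio of 3.55 (1.07 to 13.5). TRAJ13, at chr14:54205741-54205797, supplied 5.56% (6 of 108) in SG and 0.939% (2 of 213) in CT, with a ratio of 5.92 (1.06 to 59.9). TRAJ49, at chr14:54168686-54168744, supplied 0.926% (1 of 108) in SG and 6.57% (14 of 213) in CT, with a ratio of 0.141 (0.00333 to 0.926). TRAJ22 and TRAJ13 were thus the more frequent in the serine/glycine-free library and TRAJ49 in the control library, each by an interval that ended close to 1. Only the TRAJ13 interval excluded 1 in every setting tried. Among barcodes with 1 TRB and at most 2 TRA, the TRAJ22 ratio was 3.002 (0.866 to 11.7). The TRAJ49 interval reached 1.05 with contigs of at least 3 UMIs and 1.07 by cell. Each count rests on a handful of rearrangements in 1 library.

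The other leading TRAJ genes had intervals that held 1. TRAJ31 was used in 9 rearrangements of the serine/glycine-free library and 8 of the control library. TRAJ50 was used in 6 SG and 6 CT rearrangements, and TRAJ27 in 6 SG and 4 CT. TRAJ40, the most used J of the control library, had 4 in SG and 16 in CT, and TRAJ30 had 4 in SG and 13 in CT. Their intervals held 1. TRAJ56 was used in 4 SG and 11 CT rearrangements, and TRAJ26 in 2 SG and 12 CT. TRAJ48 and TRAJ15 were each seen in 0 SG and 8 CT rearrangements, with ratio intervals that reached 1.16. TRAJ18, the J of the invariant natural killer T chain, had 4 in SG and 8 in CT, and TRAJ33, the J of the mucosal-associated invariant chain, had 4 in SG and 6 in CT. In the serine/glycine-free library, 5 of the 9 TRAJ22 rearrangements were joined to TRAV7-3 and 3 of the 6 TRAJ13 rearrangements to TRAV3-3.

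A V and J pair was mostly used once. The serine/glycine-free library had 99 distinct TRAV and TRAJ pairs, of which 5 were built more than once, and the control library had 185, of which 24 were. Both libraries held 14 pairs in common. These pairs were singled out after their values were seen. The pair most often rebuilt was TRAV7-3 with TRAJ22, which occurred as 5 distinct rearrangements in 27 cells of the serine/glycine-free library and in 0 rearrangements of the control library. In the control library no pair was built more than 3 times, as happened for TRAV14D-2 with TRAJ49, TRAV14D-3-DV8 with TRAJ52, TRAV16N with TRAJ26 and TRAV7D-2 with TRAJ40. The CDR3 nucleotides of the TRAV7-3 and TRAJ22 chains are shown because they differ around the joint. Capitals mark the bases between the 5′ and 3′ stretches that at least 50% of the other rearrangements of the same V or J gene share.
TRAV7-3 TRAJ22 in 15 cells: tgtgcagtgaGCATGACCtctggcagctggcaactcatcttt
TRAV7-3 TRAJ22 in 9 cells: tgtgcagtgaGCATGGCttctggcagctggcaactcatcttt
TRAV7-3 TRAJ22 in 1 cell, with the TRBJ1-4 partner: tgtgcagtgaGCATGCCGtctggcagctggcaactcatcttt
TRAV7-3 TRAJ22 in 1 cell, with the TRBJ1-5 partner: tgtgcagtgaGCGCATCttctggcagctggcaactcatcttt
TRAV7-3 TRAJ22 in 1 cell, with the TRBV1 partner: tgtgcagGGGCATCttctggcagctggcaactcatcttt

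Of these 5 chains, 4 had a CDR3 of 14 amino acids and differed from each other by 1 to 2 amino acids. All 4 were in cells called CD8 by their own transcripts, and all 4 were partnered with a beta chain of TRBV31 and the TRBJ1 cluster. The chain in 15 cells had a TRBV31 to TRBJ1-5 partner in all 15. The chain in 9 cells had a TRBV31 to TRBJ1-4 partner in all 9. A further chain in 1 cell had another TRBV31 to TRBJ1-4 rearrangement, and the remaining chain, also in 1 cell, had the same TRBJ1-5 beta rearrangement as the 15 cells. The fifth TRA chain, of 13 amino acids in 1 cell that was not called, was partnered with TRBV1 and TRBJ2-1. Among the 5 repeated pairs of the serine/glycine-free library, 1 had at least 2 members with the same TRBV and TRBJ cluster, against 3 of 24 in the control library. The beta partners from chromosome 6 are shown with the same use of capitals.
TRBV31 TRBJ1-5 in 16 cells: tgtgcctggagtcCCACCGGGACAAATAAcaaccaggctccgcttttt
TRBV31 TRBJ1-4 in 9 cells: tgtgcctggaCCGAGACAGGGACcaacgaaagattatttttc
TRBV31 TRBJ1-4 in 1 cell: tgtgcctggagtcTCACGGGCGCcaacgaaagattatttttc

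TRAV3-3 with TRAJ13 was the other pair built more than 2 times in the serine/glycine-free library, as 3 rearrangements in 74 cells. All 3 chains had a CDR3 of 13 amino acids and differed from each other by 2. Their beta partners used TRBV19 with TRBJ2-1, TRBV5 with TRBJ2-1, and TRBV12-2+TRBV13-2 with TRBJ2-4, and all 3 beta chains had a CDR3 of 15 amino acids. The chain in 65 cells was paired with the TRBV19 rearrangement in 62 of them, the chain in 8 cells with the TRBV5 rearrangement in all 8, and the third was in 1 cell. The alpha and beta joints are shown because chains of the same alpha pair and the same beta length came with different TRBV genes.
TRAV3-3 TRAJ13 in 65 cells: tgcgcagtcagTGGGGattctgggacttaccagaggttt
TRAV3-3 TRAJ13 in 8 cells: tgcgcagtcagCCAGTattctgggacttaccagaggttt
TRAV3-3 TRAJ13 in 1 cell: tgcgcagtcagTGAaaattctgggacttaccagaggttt
TRBV19 TRBJ2-1 in 64 cells: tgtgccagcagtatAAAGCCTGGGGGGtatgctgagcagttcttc
TRBV5 TRBJ2-1 in 8 cells: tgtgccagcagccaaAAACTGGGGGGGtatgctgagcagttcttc
TRBV12-2+TRBV13-2 TRBJ2-4 in 1 cell: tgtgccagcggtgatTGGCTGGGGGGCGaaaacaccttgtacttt

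Counted by cell, usage followed these expanded chains. TRAV3-3 was carried by 99 of 284 TRA chains of cells (34.9%) in the serine/glycine-free library and 8 of 253 (3.16%) in the control library, with a ratio of 11.02 (5.38 to 26.2), and of 6.30 (2.89 to 15.7) without the largest clone. TRAJ13 was carried by 77 (27.1%) in SG and 2 (0.791%) in CT, and TRAV7-3 by 29 (10.2%) in SG and 7 (2.77%) in CT. TRAJ22 was carried by 31 (10.9%) in SG and 5 (1.98%) in CT. TRAJ4, at chr14:54216291-54216353, was carried by 39 (13.7%) in SG and 0 in CT, with a ratio interval that began at 8.98, although it was in only 2 of 108 rearrangements. TRAV16N lay the other way by cell, with 10 (3.52%) in SG and 23 (9.09%) in CT, with a ratio of 0.387 (0.165 to 0.846), while its ratio by rearrangement was 1.11. By cell the ratio interval excluded 1 for 12 TRAV genes (23.5%), 11 TRAJ genes (26.8%) and 5 TRBJ genes (41.7%). Without the largest clone these counts were 5, 6 and 3.

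The expression library gave a second reading of the same TRAV genes. Among barcodes with 1 TRA contig, 149 of 174 in the serine/glycine-free library and 147 of 207 in the control library had at least 1 Trav UMI. The Trav gene named by the contig was among those UMIs in 121 of these barcodes (81.2%, interval 74.0 to 87.1) in SG and 108 (73.5%, interval 65.6 to 80.4) in CT, and a gene of the same family in a further 16 SG and 18 CT barcodes. A Trav UMI was present in 85.4% of barcodes with contigs in the serine/glycine-free library and 68.0% in the control library, whose median total was lower (5697 UMIs per barcode in SG and 2697 in CT). Among macrophage-rich barcodes, defined by at least 3 C1q UMIs and no contig, it was present in 0 of 732, which allows up to 0.41%, in SG, and in 2 of 745 (0.268%) in CT. Trav RNA in cells with a contig was thus above the level in macrophage-rich barcodes. Since barcodes with a contig were left out of that group, a low level there was partly given in advance.

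Some single genes could be followed in both readings. Trav3-3 RNA was in 97 of 99 cells with a TRAV3-3 contig and in 1 of 130 other cells of the serine/glycine-free library. Trav7-3 RNA was in 29 of 29 cells with the contig and 1 of 200 others there. In the control library Trav16n RNA was in 21 of 23 cells with its contig and 3 of 207 others, and Trav14d-3-dv8 RNA was in 10 of 12 cells with the contig and 6 of 218 others. In the libraries named here, few cells with Trav3-3, Trav7-3 or Trav16n RNA lacked the contig, while for Trav14d-3-dv8 6 of 16 did. Control cells had Trav3-3 RNA in 8 of 8 with the contig and 6 of 222 others. They had Trav7-3 RNA in 5 of 7 with the contig and 2 of 223 others. The part of RNA-positive cells without the contig thus also differed between the libraries for the same gene. Over all barcodes with contigs, Trav14d-3-dv8 had a UMI in 4 of 247 (1.62%) in the serine/glycine-free library and 16 of 256 (6.25%) in the control library, with a ratio of 0.259 (0.0630 to 0.803). The 4 SG barcodes had no contig of that gene, while the 16 CT barcodes include the 10 with the contig. This RNA count is by cell, over SG barcodes that include the 64 cells of the largest clone. It is therefore not an independent repeat of the count by rearrangement. Trav6-6 and Trav6n-7 had 0 UMIs in both libraries although their contigs were present, Trav6-6 in 0 of 8 SG and 0 of 19 CT cells with the contig, so the matrix does not read every copy. Trav9d-2, Trav5d-4 and Trav11 also had 0 UMIs in both. Trav12d-2 RNA was in 0 of 12 SG and 0 of 10 CT cells with its contig. Trav14d-2 RNA was in 1 SG and 0 CT barcodes, and Trav4-2 RNA in 2 SG and 5 CT, opposite to their contigs. Trav13-1, Trav1 and Trav10d RNA lay the same way as their contigs. Trav8d-1 RNA was in 17 of 247 SG and 6 of 256 CT barcodes, with a ratio of 2.94 and an interval that excluded 1. Its contig was in 7 SG and 6 CT cells. Among cells without that contig, 10 of 222 in SG and 3 of 224 in CT had a Trav8d-1 UMI. Trav9-4 RNA was in 1 SG and 7 CT barcodes, while its contig was in 8 SG and 9 CT cells. Traj UMIs were rare, with the named gene in 1 of 282 SG and 4 of 252 CT combinations of a cell and its TRAJ gene.

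The 12 TRBJ genes were all used in both libraries, and the ratio interval excluded 1 for none of them (0%) by rearrangement. TRBJ2-7, at chr6:41543810-41543856, was the most used under both diets, with 22.7% (25 of 110, interval 15.3 to 31.7) for the serine/glycine-free library and 15.7% (34 of 216, interval 11.2 to 21.3) for the control library, with a ratio of 1.44 (0.826 to 2.49). TRBJ2-1, at chr6:41542754-41542803, supplied 10.0% (11) in SG and 15.3% (33) in CT, with a ratio of 0.655 (0.298 to 1.33). TRBJ2-3 supplied 10.0% (11) in SG and 8.80% (19) in CT, TRBJ2-5 supplied 9.09% (10) in SG and 12.5% (27) in CT, TRBJ2-4 supplied 5.45% (6) in SG and 10.2% (22) in CT, and TRBJ2-2 supplied 7.27% (8) in SG and 6.48% (14) in CT. The ratio intervals of these TRBJ2 genes held 1. In the TRBJ1 cluster, TRBJ1-1 supplied 9.09% (10) in SG and 8.33% (18) in CT, TRBJ1-4 supplied 9.09% (10) in SG and 7.41% (16) in CT, and TRBJ1-2 supplied 5.45% (6) in SG and 4.17% (9) in CT. TRBJ1-6 supplied 5.45% (6) in SG and 3.24% (7) in CT, TRBJ1-5 supplied 4.55% (5) in SG and 5.09% (11) in CT, and TRBJ1-3, the least used under both diets, supplied 1.82% (2) in SG and 2.78% (6) in CT. The TRBJ2 cluster made up 64.5% (71 of 110) of rearrangements in the serine/glycine-free library and 69.0% (149 of 216) in the control library, with a ratio of 0.936 (0.695 to 1.25). No difference in TRBJ usage by rearrangement was detectable at this depth.

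By cell the order of the TRBJ genes was different. TRBJ2-1, the J of the 64-cell beta rearrangement shown above, was in 81 of 246 TRB chains of cells (32.9%) in the serine/glycine-free library and 41 of 250 (16.4%) in the control library, with a ratio of 2.01 (1.36 to 2.999). TRBJ1-5, the J of the TRBV31 rearrangement in 16 cells, was in 25 (10.2%) in SG and 12 (4.80%) in CT, with a ratio of 2.12 (1.03 to 4.63). TRBJ2-4 was in 7 (2.85%) in SG and 26 (10.4%) in CT, TRBJ2-3 in 11 (4.47%) in SG and 27 (10.8%) in CT, and TRBJ2-5 in 12 (4.88%) in SG and 28 (11.2%) in CT. TRBJ2-1 was above its control share by cell only with the largest clone, since without that clone its ratio by cell was 0.561 (0.299 to 1.01).

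**Figure D2:**
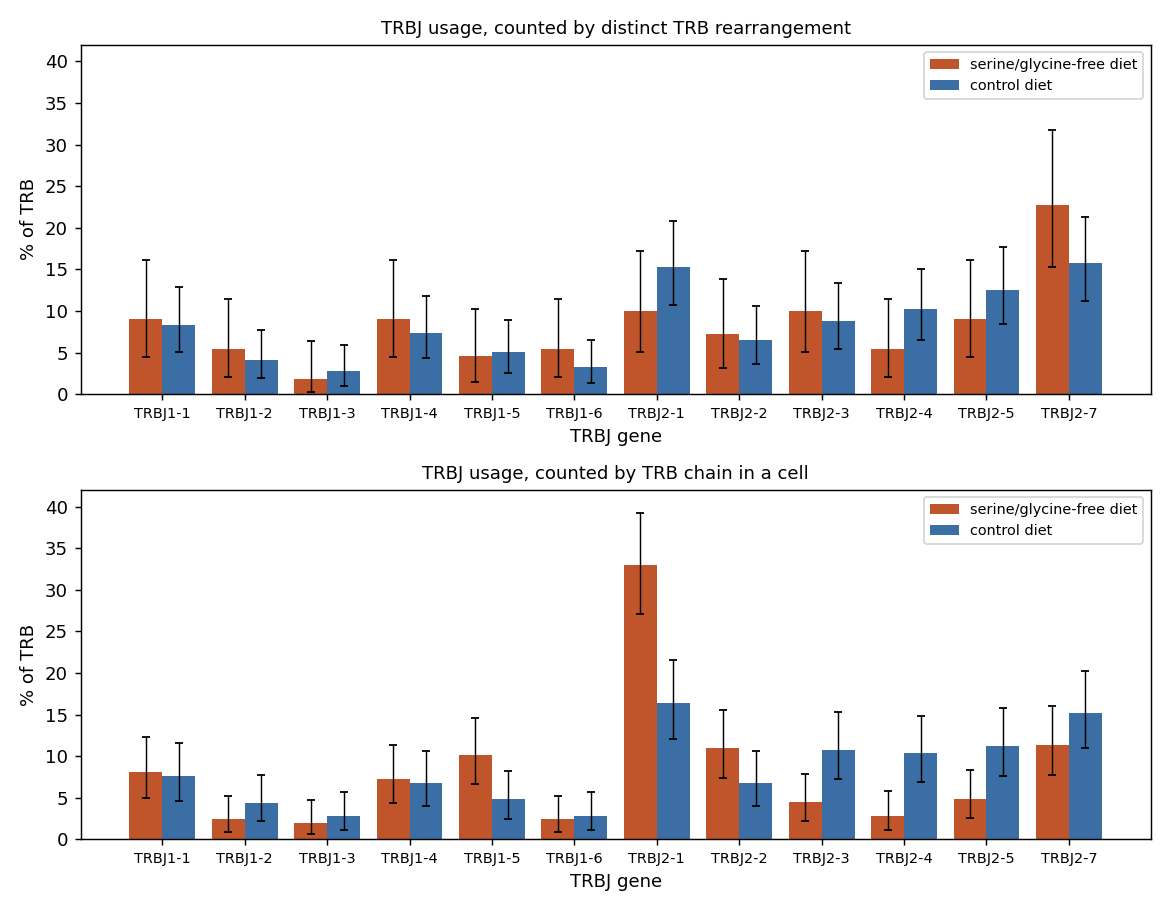
Share (%) of TRB with each of the 12 TRBJ genes, by distinct rearrangement (upper panel) and by cell (lower panel), for the serine/glycine-free library (left bar of each pair) and the control library (right bar). Whiskers are exact 95% intervals for counting error. The intervals overlap for every gene in the upper panel, and TRBJ2-1 stands at 32.9% against 16.4% in the lower panel.

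The constant gene followed the J cluster in both libraries. All 80 TRBJ1 chains of the serine/glycine-free library and all 73 of the control library carried TRBC1. TRBC2 was carried by 165 of 166 SG and 176 of 177 CT chains with TRBJ2, and the remaining chain in each library had no constant gene named. A D segment was named for few rearrangements. With TRBJ1 it was TRBD1 in 9 of 9 in SG and 14 of 14 in CT, and TRBD2, which lies behind the TRBJ1 cluster, in 0, which allows shares of up to 33.3% in SG and 21.4% in CT. With TRBJ2 it was TRBD1 in 6 and TRBD2 in 10 of 16 rearrangements of the serine/glycine-free library, and TRBD1 in 32 and TRBD2 in 14 of 46 of the control library. In the expression matrix, Trbc1 made up 16.3% (interval 13.1 to 19.9) of Trbc UMIs in TRBJ1 cells and 17.8% (13.8 to 22.5) in TRBJ2 cells of the serine/glycine-free library. It made up 37.8% (30.2 to 45.9) in TRBJ1 cells and 13.1% (8.39 to 19.2) in TRBJ2 cells for the control library. In the matrix, therefore, Trbc2 UMIs outnumbered Trbc1 UMIs even in cells whose contig carried TRBC1.

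Pairing by distance was examined by dividing the 114 annotated TRAV segments that are not pseudogenes, in their order on chromosome 14, into groups of 38 that lie proximal, middle and distal to the TRAJ genes. Of the 51 genes in use, 22 were proximal, 9 middle and 20 distal. Position was taken from the copy that the contig named, which is uncertain. In SG, Trav13d-2, a distal gene, had a UMI in 0 of 12 cells with its contig. Trav13-2, a proximal gene, had one in 10 of those cells, and 11 of the 12 cells shared 1 rearrangement. A chain can therefore stand in the wrong group. Proximal TRAV genes supplied 53.7% (58 of 108) of rearrangements in the serine/glycine-free library and 45.1% (96 of 213) in the control library. In the serine/glycine-free library, TRAJ numbers above 40, which lie nearest the TRAV genes, were joined to 36.2% (21 of 58) of proximal and 18.2% (6 of 33) of distal TRAV chains, with a ratio of 1.99 (0.777 to 6.03). In the control library they were joined to 37.5% (36 of 96) of proximal and 29.4% (20 of 68) of distal TRAV chains, with a ratio of 1.28 (0.719 to 2.32). The middle group had 35.3% in SG and 40.8% in CT. Both ratios lay above 1 with intervals that held 1, and by cell the ratio of the serine/glycine-free library was 0.404. The Spearman correlation of TRAV order with TRAJ number was 0.14 over 108 rearrangements of the serine/glycine-free library and 0.11 over 213 of the control library. These are descriptions across rearrangements that share a library.

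The 15 annotated TRAV segments nearest to TRAJ, a group chosen after the data were seen, were set against all others. They were joined to a mean TRAJ number of 39.3 ± 11.9 (SD, n = 8 rearrangements) in the serine/glycine-free library, where all other TRAV genes had 33.1 ± 13.6 (n = 100). In the control library the means were 44.1 ± 11.7 (n = 18) for the nearest genes and 34.8 ± 14.2 (n = 195) for the others. TRAJ numbers above 40 made up 3 of 8 SG and 11 of 18 CT joints of the nearest genes, against 30 of 100 SG and 65 of 195 CT joints of the others, with ratios of 1.25 (0.244 to 4.02) in SG and 1.83 (0.872 to 3.50) in CT. Both intervals held 1, and in SG this ratio was below that of proximal over distal genes. TRAJ numbers of 20 or less were joined to the nearest genes in 1 of 8 SG and 0 of 18 CT rearrangements. The 0 allows a share of up to 16.7% by the floor of 3 counts and 18.5% by the exact interval. Over all TRAV genes the serine/glycine-free library had 33 rearrangements with a TRAJ above 40, 58 between 21 and 40, and 17 at 20 or less. The control library had 76, 98 and 39.

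**Figure D3:**
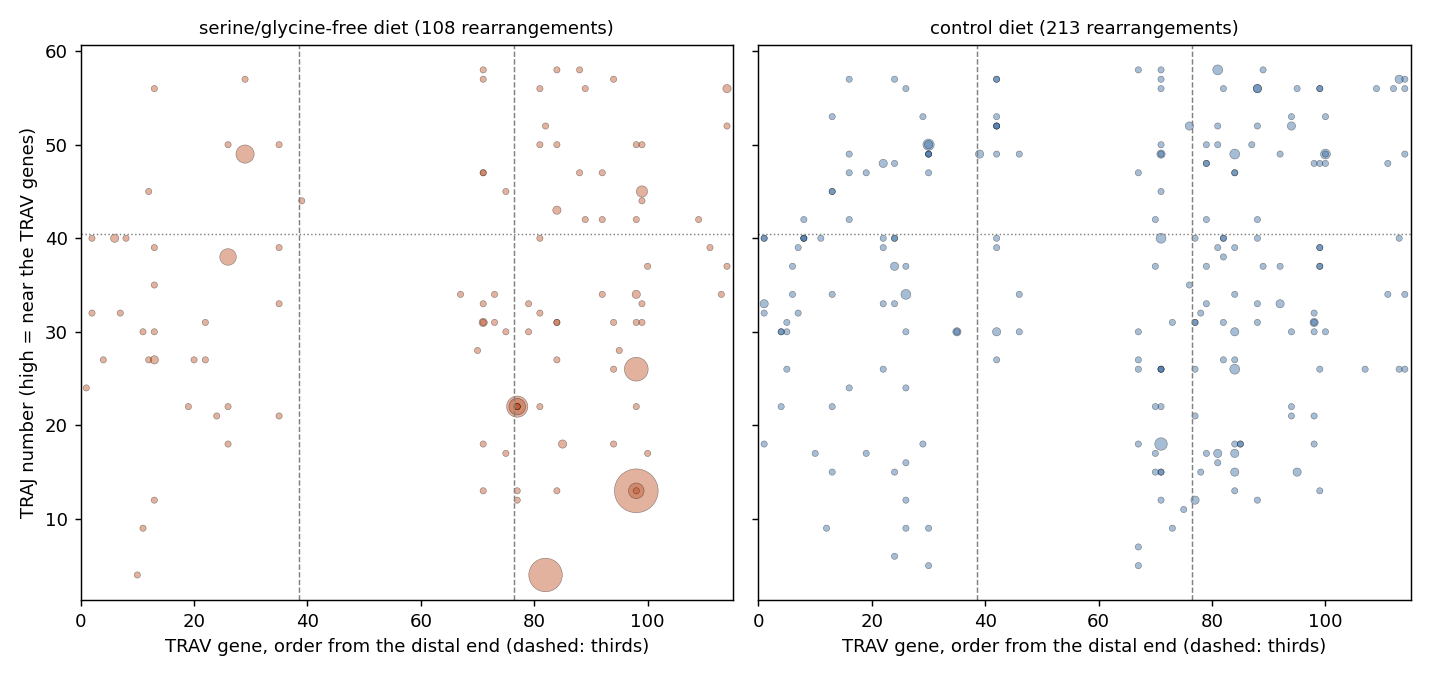
TRAJ number (vertical axis, high numbers lie nearest the TRAV genes) against the order of the TRAV gene counted from the distal end (horizontal axis), 1 point for each distinct TRA rearrangement, for the serine/glycine-free library (left, 108) and the control library (right, 213). Dashed lines part the proximal, middle and distal groups of 38 annotated TRAV segments and the dotted line parts TRAJ numbers above 40 from the rest. Points fill most of both panels, and the control library has 0 joints of the 15 nearest TRAV genes at TRAJ numbers of 20 or less.

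CDR3 length was measured in amino acids over distinct rearrangements. The TRA CDR3 averaged 13.5 ± 1.48 amino acids (SD over 108 rearrangements, range 10 to 17) for the serine/glycine-free library and 13.6 ± 1.46 (213 rearrangements, range 7 to 17) for the control library. The TRB CDR3 averaged 13.8 ± 1.57 (110 rearrangements, range 10 to 18) in SG and 14.1 ± 1.56 (216 rearrangements, range 8 to 18) in CT. The differences, serine/glycine-free minus control, were -0.096 amino acids for TRA and -0.329 for TRB. By cell the TRB mean was 14.3 in SG and 14.2 in CT, a difference of 0.165 with the opposite sign. TRB CDR3 of at least 16 amino acids, a length chosen after the data were seen, made up 9.09% (10 of 110) in SG and 18.1% (39 of 216) in CT, with a ratio of 0.503 (0.224 to 1.03).

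**Figure D4:**
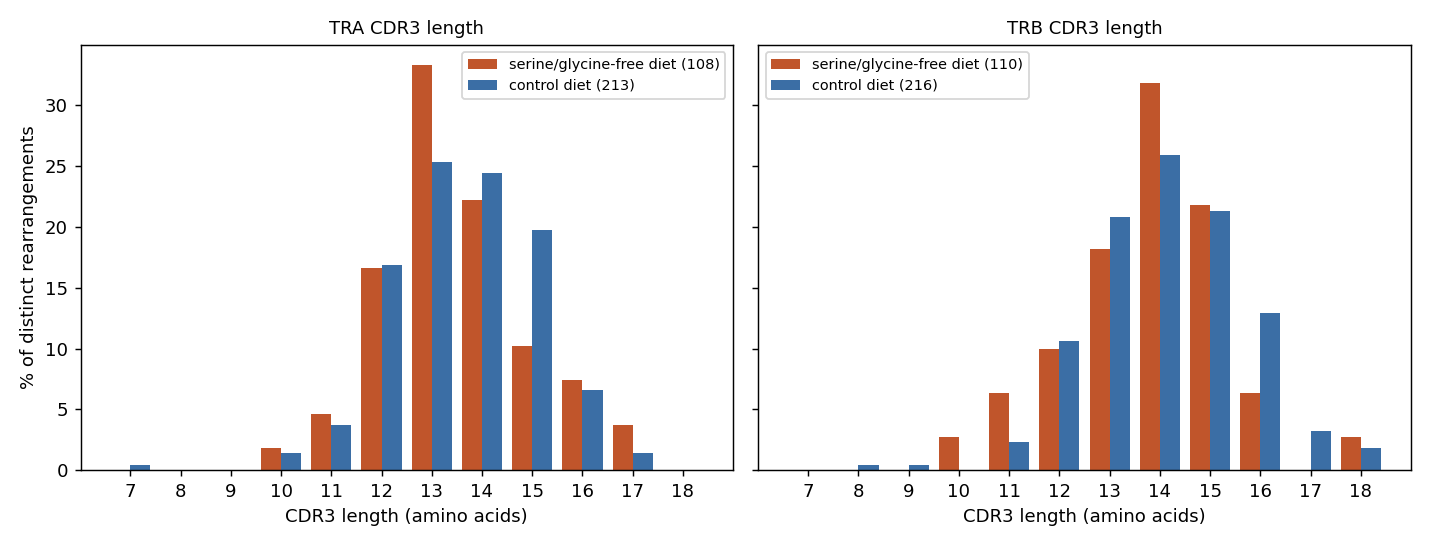
Distribution of CDR3 length in amino acids for TRA (left) and TRB (right), as the share (%) of distinct rearrangements in the serine/glycine-free library (left bar of each pair, 108 and 110 rearrangements) and the control library (right bar, 213 and 216). Both TRA distributions peak at 13 and both TRB distributions at 14 amino acids.

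CDR3 length varied with the J gene. Over both libraries, TRAJ31 chains averaged 11.7 ± 1.21 amino acids (SD, n = 17 rearrangements), while TRAJ50 chains averaged 15.4 ± 1.31 (n = 12) and TRAJ32 chains 15.6 ± 0.787 (n = 7). TRBJ2-7 chains averaged 13.2 ± 1.40 (n = 59) and TRBJ2-3 chains 15.2 ± 1.58 (n = 30). The lengths differed between J genes by more than 1 SD within a J gene. For TRBJ2-7 alone the mean was 12.7 ± 1.51 (n = 25) of the serine/glycine-free library and 13.5 ± 1.21 (n = 34) in the control library. The 3′ ends that at least 50% of a J gene's rearrangements share are shown for a short and a long J gene of each chain, with the last codon of the CDR3 in capitals.
TRAJ31, 21 bases: aacaataacagaatcttcTTT
TRAJ50, 32 bases: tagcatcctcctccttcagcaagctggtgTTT
TRBJ2-7, 15 bases: tatgaacagtacTTC
TRBJ2-3, 22 bases: tagtgcagaaacgctgtatTTT

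These shared ends ran from 21 to 32 bases over 30 TRAJ genes and from 15 to 22 bases over the 12 TRBJ genes. Their length followed the mean CDR3 length of the gene, with a Spearman correlation of 0.91 over the TRAJ genes and 0.81 over the TRBJ genes. The end is itself part of the CDR3, so the relation is a description. The means of these parts leave out rearrangements with too few others of the same V or J gene to mark the joint. Between the V and J stretches lay a mean of 4.23 ± 3.13 bases in TRA for SG and 4.45 ± 2.85 for CT. In TRB, where the D segment lies in between, the means were 11.2 ± 4.21 bases in SG and 11.7 ± 3.84 in CT. The shared J stretch of TRA averaged 25.4 bases in SG and 25.5 in CT, and that of TRB averaged 17.5 in SG and 17.5 in CT. The alpha and beta chains thus reached similar lengths from different parts, with more J bases in TRA and more joint bases in TRB.

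Cells with 2 TRA chains made up 24.0% (55 of 229, interval 18.6 to 30.1) of the cells with TRA in the serine/glycine-free library and 10.0% (23 of 230, interval 6.45 to 14.6) for the control library, with a ratio of 2.40 (1.45 to 4.09). Of the 64 cells of the largest clone, 39 had 2 TRA chains. Counted once for each distinct TRB rearrangement, the shares were 9.38% in SG and 10.7% in CT, with a ratio of 0.878 (0.350 to 2.04). Without the largest clone of each library they were 9.64% in SG and 10.2% in CT, with a ratio of 0.943 (0.466 to 1.86), so the higher share by cell was not present once that clone was counted once or left out. Among cells whose strongest TRA contig had at least 10 UMIs, the shares were 30.6% in SG and 17.8% in CT, with a ratio of 1.72 (0.988 to 3.12). Both shares lay above those over all cells with TRA.

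**Figure D5:**
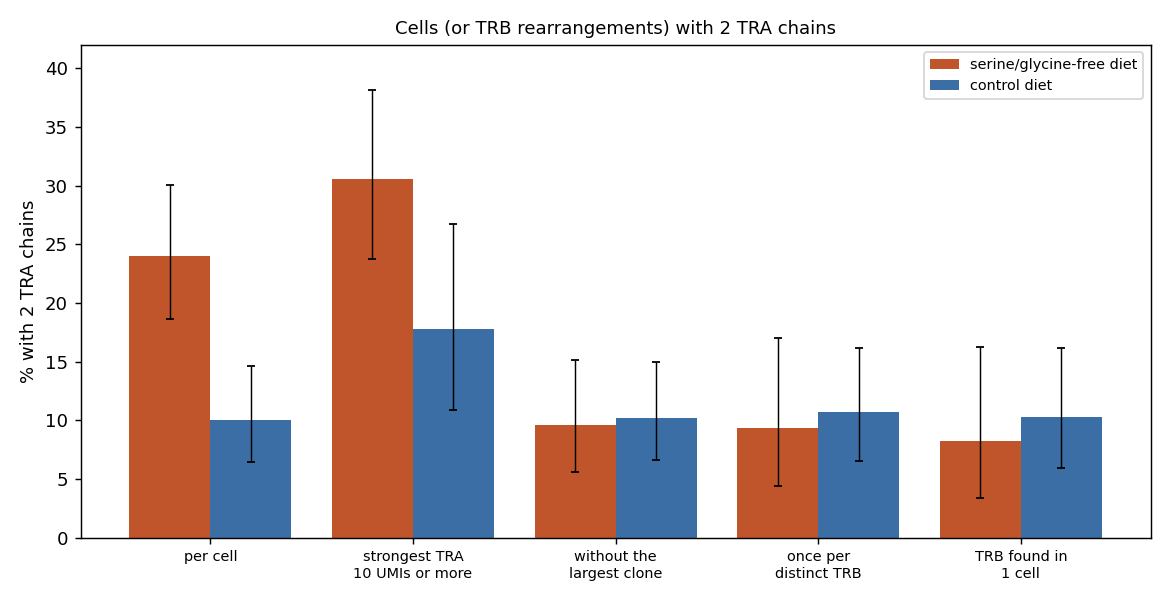
Share (%) with 2 TRA chains in the serine/glycine-free library (left bar of each pair) and the control library (right bar), over all cells with TRA, once for each distinct TRB rearrangement, and in subsets of cells. Whiskers are exact 95% intervals for counting error. The bars stand at 24.0% in SG and 10.0% in CT over all cells and at 9.38% in SG and 10.7% in CT once for each TRB.

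The pairs of chains were distinct in 9 cases in the serine/glycine-free library and 20 in the control library. The most frequent were TRAV3-3 to TRAJ13 with TRAV6-5 to TRAJ4 in 38 cells, TRAV12D-2 to TRAJ38 with TRAV7-3 to TRAJ22 in 9 cells, and TRAV7-1 to TRAJ40 with TRAV16N to TRAJ31 in 2 cells, all in the serine/glycine-free library. No pair of the control library was in more than 2 cells. The chains of chromosome 14 that accompanied the repeated pairs are shown in lower case throughout, because too few other rearrangements used the same J gene to mark the joint.
TRAV6-5 TRAJ4 in 38 cells: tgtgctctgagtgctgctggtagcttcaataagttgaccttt
TRAV12D-2 TRAJ38 in 9 cells: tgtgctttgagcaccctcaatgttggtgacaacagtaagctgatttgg

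The weaker chain of a cell had a median of 7 UMIs in the serine/glycine-free library and 9 in the control library, and the stronger chain a median of 24 in SG and 13 in CT. The median distance between their TRAJ numbers was below that of rearrangements in general. The J gene was the same in both chains for 2 of 9 SG and 1 of 20 CT distinct pairs. The distance had a median of 9 over the 9 distinct pairs of the serine/glycine-free library and 8.5 over the 20 of the control library, while any 2 rearrangements of the same library lay a median of 13 apart in SG and 15 in CT. A distance of at most 10, a limit not fixed in advance, was found in 6 of 9 SG pairs (66.7%, interval 29.9 to 92.5). In CT it was found in 13 of 20 pairs (65.0%, interval 40.8 to 84.6). It was found in 40.5% of all pairs of rearrangements in SG and 39.1% in CT. The interval of the control library lay above its own share of all pairs, and that of the serine/glycine-free library held it.

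The second TRA chain of the largest clone was also read in the expression matrix. Its contig was named TRAV6-5, but Trav6-5 RNA was in only 1 of the 38 clone cells with that contig, while Trav6d-5, a near-identical copy, had a UMI in 35 of them (92.1%, interval 78.6 to 98.3). Among the 26 clone cells without that contig, Trav6d-5 had a UMI in 6 (23.1%, interval 8.97 to 43.6), and among the 183 other cells with a contig in 2 (1.09%, interval 0.133 to 3.89). Trav3-3, the V gene of the first chain, had a UMI in 38 of 38, 23 of 26 and 39 of 183 cells. The RNA of the second V gene was therefore present in some clone cells whose second contig was not listed. Those 26 cells had a median of 7622 total UMIs and 16 UMIs for the strongest TRA contig, against 8572 and 25 in the 38 cells.

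CD8 and CD4 cells were called by their own transcripts. A cell was called CD8 with at least 1 UMI of Cd8a or Cd8b1, which encode the co-receptor for MHC class I, and 0 of Cd4, and CD4 in the opposite case, Cd4 encoding the co-receptor for MHC class II. The serine/glycine-free library had 164 CD8 and 30 CD4 cells, with 6 of both and 47 of neither, and the control library had 70 CD8 and 60 CD4 cells, with 2 of both and 124 of neither. Depth differed with the call, with median totals of 8182 UMIs in CD8 and 3242 in CD4 cells of the serine/glycine-free library and 3782 in CD8 and 2648 in CD4 in the control library. In macrophage-rich barcodes, a CD8 UMI was found in 0.273% in SG and 0.134% in CT and a Cd4 UMI in 0.683% in SG and 1.88% in CT. A rearrangement took the class of its called cells, and no rearrangement held both classes. This gave 38 CD8 and 28 CD4 TRA rearrangements in the serine/glycine-free library and 58 CD8 and 55 CD4 in the control library.

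TRAV16N was the TRAV gene whose CD8 to CD4 ratio interval excluded 1, which was 1 of 27 genes (3.7%) in the serine/glycine-free library. It was in 7 of 38 CD8 rearrangements and 0 of 28 CD4 rearrangements there, with a ratio interval that began at 1.06. In the control library it was in 8 of 58 CD8 (13.8%) and 2 of 55 CD4 (3.64%) rearrangements, with a ratio of 3.79 (0.757 to 36.7), and the interval excluded 1 for 0 of 45 TRAV genes (0%). TRAV16N was thus the more frequent among CD8 rearrangements of both libraries, with an interval that held 1 in the control library. No TRAJ gene had such an interval among 29 in the serine/glycine-free library (0%) or 34 in the control library (0%). No TRBJ gene had one among 12 in the serine/glycine-free library (0%) or 12 in the control library (0%).

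Segment position and CDR3 length were also set side by side for CD8 and CD4 rearrangements. The TRBJ2 cluster made up 68.6% of CD8 and 70.0% of CD4 rearrangements in the serine/glycine-free library, and 68.4% in CD8 and 73.6% in CD4 in the control library. Distal TRAV genes made up 23.7% of CD8 and 28.6% of CD4 rearrangements in the serine/glycine-free library, and 29.3% in CD8 and 32.7% in CD4 in the control library. These positions also rest on the copy named by the contig. TRAJ numbers above 40 made up 23.7% (9 of 38) of CD8 and 53.6% (15 of 28) of CD4 rearrangements in the serine/glycine-free library, with a ratio of 0.442 (0.171 to 1.08). The control library had 37.9% (22 of 58) of CD8 and 32.7% (18 of 55) of CD4, with a ratio of 1.16 (0.593 to 2.29). The TRB CDR3 averaged 13.8 ± 1.61 amino acids in 35 CD8 and 13.8 ± 1.69 in 30 CD4 rearrangements of the serine/glycine-free library. It averaged 13.98 ± 1.54 in 57 CD8 and 14.40 ± 1.54 in 53 CD4 rearrangements of the control library, a difference of -0.414. The TRA CDR3 averaged 13.3 ± 1.55 in CD8 and 13.4 ± 1.57 in CD4 in the serine/glycine-free library, and 13.6 ± 1.48 in CD8 and 13.6 ± 1.35 in CD4 in the control library. By cell, the CD8 minus CD4 difference of the serine/glycine-free library was 0.732 for TRB and 0.167 for TRA, with the opposite sign.

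Cells with 2 TRA chains made up 31.8% (49 of 154) of CD8 cells and 3.57% (1 of 28) of CD4 cells with TRA in the serine/glycine-free library, with a ratio of 8.91 (1.53 to 359). Without the largest clone the CD8 share was 12.5% and the ratio 3.50 (0.518 to 150). In the control library the shares were 10.3% (7 of 68) of CD8 cells and 5.26% (3 of 57) of CD4 cells, with a ratio of 1.96 (0.447 to 11.7). CD8 cells had the higher share in both libraries, but outside the largest clone the intervals held 1. These are counts of cells, and outside that clone 9 SG cells shared 1 further pair of TRA chains. CD8 cells also had higher median total UMIs than CD4 cells in both libraries, so the shares are not matched for depth.

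The V and J pairs of the invariant chains were rare. TRAV11 with TRAJ18 occurred as 1 rearrangement in 2 cells of the serine/glycine-free library, called CD8, and as 2 rearrangements in 1 cell each of the control library. All 3 had a CDR3 of 15 amino acids and are shown because they differ in the first of the bases in capitals. TRAV1 with TRAJ33 was found in 0 of 108 rearrangements of the serine/glycine-free library, which allows a share of up to 2.78%, and in 1 of 213 of the control library, in 2 cells called CD4. That chain had a CDR3 of 14 amino acids, with 6 bases between the shared stretches. It is named here by its V and J genes only, and whether it is the invariant chain was not tested.
TRAV11 TRAJ18, serine/glycine-free library, 2 cells: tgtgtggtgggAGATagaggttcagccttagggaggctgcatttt
TRAV11 TRAJ18, control library, 1 cell: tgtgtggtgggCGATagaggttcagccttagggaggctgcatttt
TRAV11 TRAJ18, control library, 1 cell: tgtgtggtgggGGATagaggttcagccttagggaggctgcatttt
TRAV1 TRAJ33, control library, 2 cells: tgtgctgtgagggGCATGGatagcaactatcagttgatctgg

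The largest TRA rearrangement of the control library also used TRAJ18. It joined TRAV16N to TRAJ18 with a CDR3 of 16 amino acids, in 5 cells called CD8. Its joint, from chromosome 14, differs from the invariant chain in V gene and length but ends in the same TRAJ18 stretch.
TRAV16N TRAJ18, control library, 5 cells: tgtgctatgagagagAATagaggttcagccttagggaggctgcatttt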

How the data were processed

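The authors deposited, for each library, a table of filtered T cell receptor contigs with a UMI count for each contig, and a matrix of UMI counts per gene and barcode. Cell Ranger is named with version 7.1.0 per the file headers and with version 2.2.2 and mm10 per the submitters' processing notes; which applies to the contigs is not given in the sources used here. Each contig counted as deposited, with no further filter on UMIs. Segments were placed with RefSeq coordinates of GRCm38.p6. Counts, exact intervals at 95% and ratios were computed with Python 3.11.15, pandas 2.3.3, numpy 2.4.6 and scipy 1.17.1, figures were drawn with matplotlib 3.10.9, and the scripts were tested on simulated counts. No test between diets was made and no doublet caller was run.

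Named genes were the 5 most used TRAV and TRAJ in each library, the 5 with the largest difference in share each way, every TRBJ, and the segments of invariant chains. The members and lists were chosen with earlier results of these data known. Alternatives were counting by cell, contigs with at least 3 UMIs, barcodes with 1 TRB, other rules for CD8 and CD4 calls, and cells thinned to 1000 UMIs. Merging TRAV copies by family, a filter on barcodes, the 15 nearest TRAV, the 16 amino acid limit and the subsets of cells with 2 TRA chains were chosen after seeing the data.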

Additional observations from a re-analysis of the deposited data

Results flagged for a closer look

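A difference between CD8 and CD4 rearrangements pointed opposite ways in the libraries for 2 measures. The CD8 over CD4 ratio of the share of TRAJ numbers above 40 was 0.442 (0.171 to 1.08) in the serine/glycine-free library. It was 1.16 (0.593 to 2.29) in the control library, and both intervals held 1. The mean TRA CDR3 length in CD8 minus CD4 rearrangements was -0.165 amino acids in the serine/glycine-free library and 0.0197 in the control library. Both differences were small beside the SDs of 1.35 to 1.57 within CD8 and CD4 rearrangements. The difference between the libraries was not tested for either measure, since there is 1 library per diet.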

How the results depend on the processing

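The 108 results gave 751 values over 19 settings. Of these, 707 stayed within the counting interval or spread of the reported value (for counts of genes, within 1.5 times). A further 34 lay outside it and 10 turned a called ratio or a difference round. The headline results, such as the count of TRAV genes but not the ratios of single TRAV genes, gave 99 values. Of those 99, 79 stayed within that range. Intervals of single genes are wide, so a value inside one can still lie on the other side of 1, as for TRAJ26 (0.329, and 1.27 by cell) or TRAJ50 (1.97, and 0.535 by cell). The count of TRAJ genes was 2 with contigs of at least 3 UMIs, with 1 TRB and at most 2 TRA, or with a Cd3 UMI. Counting by cell gave 12 TRAV, 11 TRAJ and 5 TRBJ genes with a ratio interval without 1, and by cell without the largest clone 5, 6 and 3, against 1, 3 and 0 by rearrangement. Merging near-identical TRAV copies by family left 0. The ratio of TRAJ numbers above 40 with proximal over distal TRAV in the serine/glycine-free library was 0.404 by cell and 0.748 by cell without the largest clone, against 1.99 by rearrangement. The length difference between libraries was 0.0633 amino acids for TRA by cell without the largest clone, and 0.165 for TRB by cell. In the serine/glycine-free library, CD8 minus CD4 length was 0.167 by cell and 0.287 after thinning to 1000 UMIs for TRA. For TRB it was 0.732 by cell, 0.0139 when the higher of the CD8 and Cd4 UMIs decided, and 0.714 with at least 2 UMIs on the called side. The ratio of cells with 2 TRA chains was 0.878 once per TRB, 0.803 among TRB rearrangements of 1 cell and 0.943 without the largest clone. The CD8 share of called cells was 84.5% in SG and 53.8% in CT, a ratio of 1.57, which was 1.17 with at least 2 UMIs on the called side. By construction, counting by cell weights a rearrangement by its clone size; the cause of the other moves was not tested. Depth limits the calls, since 47 SG and 124 CT barcodes had neither co-receptor. No paired analysis was possible because there is 1 library per diet and the labels carry no replicate numbers.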
